A study of Mus musculus with 3 samples.

Results

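The RNAs described here are the small nucleolar RNAs (snoRNAs), small Cajal body RNAs (scaRNAs) and 7SK RNA that were recovered by RIA-seq from mouse ES cells. They were chosen by gene symbol alone. Symbols beginning with Snord, Snora, Scarna, Rnu or Rn7s in any case, and the symbols 7SK, Rmrp, Rpph1 and U1 to U7, were taken, and counts were summed per symbol and chromosome. This rule found 203 of the 26887 genes listed in the 3 libraries. There were 142 box H/ACA snoRNA genes, 22 box C/D snoRNA genes (20 with Snord symbols and U3 on 2 chromosomes), 20 scaRNA genes and 7SK on 19 chromosomes. Rows for spliceosomal RNAs (U1, U2 and U4 to U7), and for the symbols Rmrp, Rpph1, Rnu and Rn7s, were not among those analysed here, so the spliceosomal class held 0 genes.

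In RIA-seq, antisense oligonucleotides pull down one target RNA from fixed cells together with the RNAs held to it. E14 cells, a mouse ES cell line of the 129/Ola strain, were fixed with 1% glutaraldehyde for 10 min, and the lysate was hybridized overnight at 37 °C. The oligonucleotides were directed against Actb, the β-actin mRNA used as the control (Actb RIA-seq), against the nuclear long noncoding RNA Malat1 (Malat1 RIA-seq), or against Tfrc, the transferrin receptor mRNA (Tfrc RIA-seq), and the libraries are called by these targets below. The cells, fixation and capture on streptavidin beads were common to all conditions, and no genotype or treatment differed. Each condition had 1 library, so no spread between replicates could be measured and no p-value is given. The intervals below are at the 95% level and cover counting error only. They treat reads as independent, but PCR-amplified reads without molecular identifiers are not independent molecules, so the intervals may be too narrow even for counting error.

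Box C/D and box H/ACA snoRNAs are nucleolar RNAs that base pair with ribosomal RNA and guide 2'-O-methylation and pseudouridylation, respectively. A few, such as U3 and Snora73, act in the processing of the ribosomal RNA precursor, and scaRNAs guide the same modifications on spliceosomal RNAs in Cajal bodies. Most vertebrate snoRNAs are cut from introns of longer host transcripts, whereas 7SK is transcribed from its own promoter by RNA polymerase III and holds the elongation kinase P-TEFb in an inactive complex.

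The sequences of the 4 most counted 7SK genes are shown first, because nearly all counts fell on them and they share long identical stretches. The 7SK gene on chromosome 9 (ENSMUSG00000065037, chr9:78023110-78023440 of NCBIM37, minus strand) was 331 nt long and lay outside any longer gene on its strand. The gene on chromosome 15 (ENSMUSG00000065911, chr15:93064794-93065131, plus strand) was identical to it over 241 bases in a row, from base 1 to base 241. The gene on chromosome 2 (ENSMUSG00000065824, chr2:6997140-6997460, minus strand, in an intron of Celf2) was identical over 235 bases, from base 5 to base 239. The gene on chromosome X (ENSMUSG00000064999, chrX:149357996-149358303, minus strand) was identical over 109 bases, from base 121 to base 229. Their 3' parts are printed from base 201 of each gene, and from base 199 of the gene on chromosome X, with capitals marking the bases that differ from the chromosome 9 gene in the alignment.
7SK chr9: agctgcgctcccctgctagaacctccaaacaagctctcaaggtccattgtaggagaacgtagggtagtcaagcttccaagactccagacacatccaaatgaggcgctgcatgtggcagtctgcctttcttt
7SK chr15: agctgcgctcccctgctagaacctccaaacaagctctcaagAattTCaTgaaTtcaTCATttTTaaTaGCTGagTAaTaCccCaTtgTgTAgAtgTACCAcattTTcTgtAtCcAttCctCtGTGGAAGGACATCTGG
7SK chr2: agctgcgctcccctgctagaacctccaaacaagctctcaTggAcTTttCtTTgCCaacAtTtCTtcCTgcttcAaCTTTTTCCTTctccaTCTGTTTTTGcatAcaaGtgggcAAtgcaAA
7SK chrX: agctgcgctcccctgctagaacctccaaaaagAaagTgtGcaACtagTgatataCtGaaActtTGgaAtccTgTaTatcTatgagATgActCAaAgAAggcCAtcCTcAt
The 3' parts diverged after the shared stretch, with 55, 42 and 29 capitals in the printed parts of the genes on chromosomes 15, 2 and X. Capitals include inserted bases, whereas chromosome 9 bases absent from a gene are not marked. The printed parts also differ in length (138, 121 and 110 bases), so these numbers do not rank the genes by divergence.

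The second set shows the snoRNAs and the scaRNA on which the H/ACA and C/D results turn. The ACA trinucleotide is in capitals where it lay in the last 6 bases of H/ACA RNAs and the scaRNA. For Snord89 and Snord83b, TGATGA in the first 20 and CTGA in the last 20 bases are in capitals. U3 is printed without marks, although CTGA also lies in its last 20 bases. Snora73b (chr4:131908237-131908441, minus strand) lay in an intron of Rcc1, SNORA25 (chr13:62238290-62238422, plus strand) in an intron of Zfp808, SNORA79 (chr12:92811870-92812012, minus strand) in an intron of Gtf2a1 and SCARNA1 (chr4:132394298-132394462, minus strand) in an intron of Ppp1r8. SNORA63 (chr16:23111374-23111502, plus strand), SNORA4 (chr16:23111690-23111828, plus strand) and Snora81 (chr16:23110829-23111006, plus strand) lay in Eif4a2. Snord89 (chr1:39605590-39605699, minus strand) lay in an intron of Gm15832, Snord83b (chr15:79908928-79909021, minus strand) lay in an intron of Rpl3, and U3 (chr11:87256739-87256952, plus strand) lay in an intron of Tex14. All positions are those of NCBIM37.
Snora73b: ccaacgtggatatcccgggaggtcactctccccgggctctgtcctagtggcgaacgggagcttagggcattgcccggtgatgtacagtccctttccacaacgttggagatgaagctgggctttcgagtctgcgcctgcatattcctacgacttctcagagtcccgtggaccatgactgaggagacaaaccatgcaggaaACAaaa
SNORA25: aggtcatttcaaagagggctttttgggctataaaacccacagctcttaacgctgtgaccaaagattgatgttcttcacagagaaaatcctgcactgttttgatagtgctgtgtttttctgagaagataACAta
SNORA79: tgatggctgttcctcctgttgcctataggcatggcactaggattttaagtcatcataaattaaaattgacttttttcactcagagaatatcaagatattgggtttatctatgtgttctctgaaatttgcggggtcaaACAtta
SCARNA1: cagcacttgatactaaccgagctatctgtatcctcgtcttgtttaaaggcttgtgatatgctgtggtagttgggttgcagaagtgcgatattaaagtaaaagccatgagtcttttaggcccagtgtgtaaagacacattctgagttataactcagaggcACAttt
SNORA63: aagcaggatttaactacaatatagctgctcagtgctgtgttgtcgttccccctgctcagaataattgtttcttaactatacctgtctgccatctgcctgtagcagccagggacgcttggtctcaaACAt
SNORA4: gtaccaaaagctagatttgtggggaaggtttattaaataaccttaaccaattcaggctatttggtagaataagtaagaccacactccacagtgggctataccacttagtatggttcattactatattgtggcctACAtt
Snora81: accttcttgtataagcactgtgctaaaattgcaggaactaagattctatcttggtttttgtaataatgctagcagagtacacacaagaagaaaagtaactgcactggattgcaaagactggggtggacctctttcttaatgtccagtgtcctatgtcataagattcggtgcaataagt
Snord89: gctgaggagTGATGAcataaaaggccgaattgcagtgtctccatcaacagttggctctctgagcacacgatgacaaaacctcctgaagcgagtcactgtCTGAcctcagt
Snord83b: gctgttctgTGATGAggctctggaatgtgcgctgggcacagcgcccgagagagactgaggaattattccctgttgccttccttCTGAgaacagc
U3: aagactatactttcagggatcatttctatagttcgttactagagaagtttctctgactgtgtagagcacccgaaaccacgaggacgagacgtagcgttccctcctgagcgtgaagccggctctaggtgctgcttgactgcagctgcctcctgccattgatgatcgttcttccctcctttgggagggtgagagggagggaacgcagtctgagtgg
Read on the gene strand only, ACA lay in the last 6 bases of 122 of 152 listed H/ACA identifiers (80.3%), of 39 of the 43 with 10 or more counts (90.7%) and of 523 of 879 annotated H/ACA genes that were not listed (59.5%). Snora81 had no ACA in this window of its annotated end. CTGA lay in the last 20 bases of all 16 Snord identifiers among the members and of 310 of 331 other annotated Snord genes (93.7%), and TGATGA in the first 20 bases of 10 and 249 of them. The listed 7SK genes had TGATGA in this window in 0 of 72.

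The libraries held 10405209 counts (Actb), 10078439 (Malat1) and 14553941 (Tfrc), so that 3 counts, the smallest number taken as a limit, stood for 0.206 to 0.298 counts per 1000000 counts of the library (CPM). Values given 3 in a row are for the Actb, Malat1 and Tfrc libraries in this order, and folds given in pairs are those of the Malat1 and then the Tfrc library over the Actb library. The Actb mRNA made up 73038 CPM of the Actb library against 889 and 924 in the other libraries, Malat1 had 1834, 10657 and 7041 CPM in the Actb, Malat1 and Tfrc libraries, and Tfrc had 43.5, 101 and 117. Malat1 was thus also 3.84-fold higher in the Tfrc library than in the Actb library, and the fold of Tfrc was 2.32 in the Malat1 library against 2.69 in its own. The ES cell markers Pou5f1, Nanog, Sox2 and Zfp42 were present in every library, at 126 to 1105 CPM. Counts listed under the reference name Genome rather than under an Ensembl identifier (Genome counts) were 5.25% of the Actb library, 19.0% of the Malat1 library and 15.1% of the Tfrc library. The top 10 genes took 52.0%, 23.2% and 32.6%. The median gene was 1.82-fold higher in the Malat1 library and 1.56-fold higher in the Tfrc library than in the Actb library when libraries were scaled to their totals, and folds are set against these medians. Scaling by the median ratio over genes divided the folds over the Actb library by 1.88 (0.91 on the log2 scale) and 1.66 (0.73), so that any fold under these values came out below 1. Both comparisons share the Actb library.

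The 203 genes together had 23820 counts in the Actb library, 58414 in the Malat1 library and 34038 in the Tfrc library, which were 0.229%, 0.580% and 0.234% of the libraries. The Malat1 library stood 2.53-fold above the Actb library (2.49 to 2.57), and the Tfrc library was close to it at 1.02-fold (1.00 to 1.04). 7SK carried 97.0%, 97.9% and 95.2% of these counts, so the sum is essentially a measure of 7SK. The other 184 genes had 69.6, 121 and 111 CPM, folds of 1.74 (1.59 to 1.91) and 1.60 (1.47 to 1.75), beside 1.82 and 1.56 for the median gene. The classes differed in pattern. Scaled to library totals, H/ACA snoRNAs were higher in both target libraries and 7SK mainly in the Malat1 library. The C/D sum was also higher there, with most of its counts on U3 on chromosome 11, and the scaRNA sum was nearly level. The H/ACA folds were above those of 69.4% and 80.5% of all genes, and the scaRNA folds above 8.32% and 7.47%. Most members were sparse, since 129 had fewer than 10 counts over all libraries together and 39 had 1. Members with a count numbered 115, 158 and 165 in the 3 libraries, in the order Actb, Malat1 and Tfrc, and those with 10 or more numbered 21, 44 and 46. The share of a library that a low-count RNA takes can be low because fewer molecules were present or because fewer were recovered, which cannot be told apart.

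**Figure D1:**
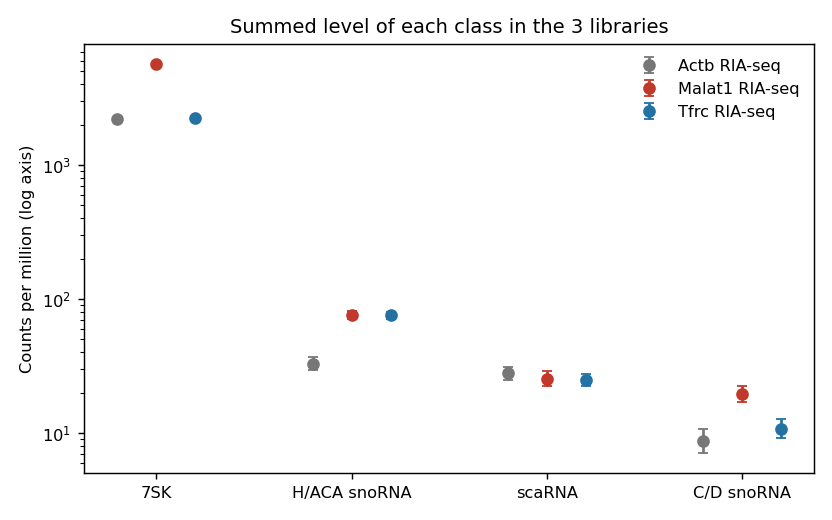
Summed CPM (log axis) of each class in the Actb, Malat1 and Tfrc libraries, 1 library each, with exact 95% binomial intervals for counting error. The 7SK sum was highest in the Malat1 library (5675 CPM), the H/ACA sums of the Malat1 and Tfrc libraries (76.3 and 75.8) stood above the Actb library (33.0), and the scaRNA sums lay between 24.9 and 27.9.

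Among members with 10 or more counts in each of the libraries compared, 12 of 20 were at least 2-fold higher in the Malat1 library than in the Actb library, against 42.1% of all 14572 genes tested, and 0 were at least 2-fold lower, against 0.954%. The median fold of these members was 2.09. In the Tfrc library, 7 of 21 were at least 2-fold higher, against 28.6% of all 14691 genes, and 0 were at least 2-fold lower, against 0.388%, with a median fold of 1.37. With median-ratio scaling these counts were 1 higher and 4 lower in the Malat1 library and 2 higher and 2 lower in the Tfrc library, so most of the higher calls were lost. The other 183 and 182 members were below the minimum and were not counted. By class, the genes higher in the Malat1 library were 5 of 5 for 7SK, 6 of 10 for H/ACA, 1 of 2 for C/D and 0 of 3 for scaRNA. In the Tfrc library all 7 were H/ACA snoRNAs, out of 10, and 7SK gave 0 of 5. Without 7SK, 7 of 15 members (46.7%) were higher in the Malat1 library, near the 42.1% of all genes. In the Tfrc library 7 of 16 (43.75%) were, against 28.6%. Genes that share long identical stretches, such as those of 7SK and of SNORA25, were counted as separate members. In the Malat1 library directly over the Tfrc library, 10 of 36 members were at least 2-fold higher, against 4.35% of 16430 genes, and 2 were at least 2-fold lower, against 1.92%. Of those 10, 6 were 7SK genes.

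**Figure D2:**
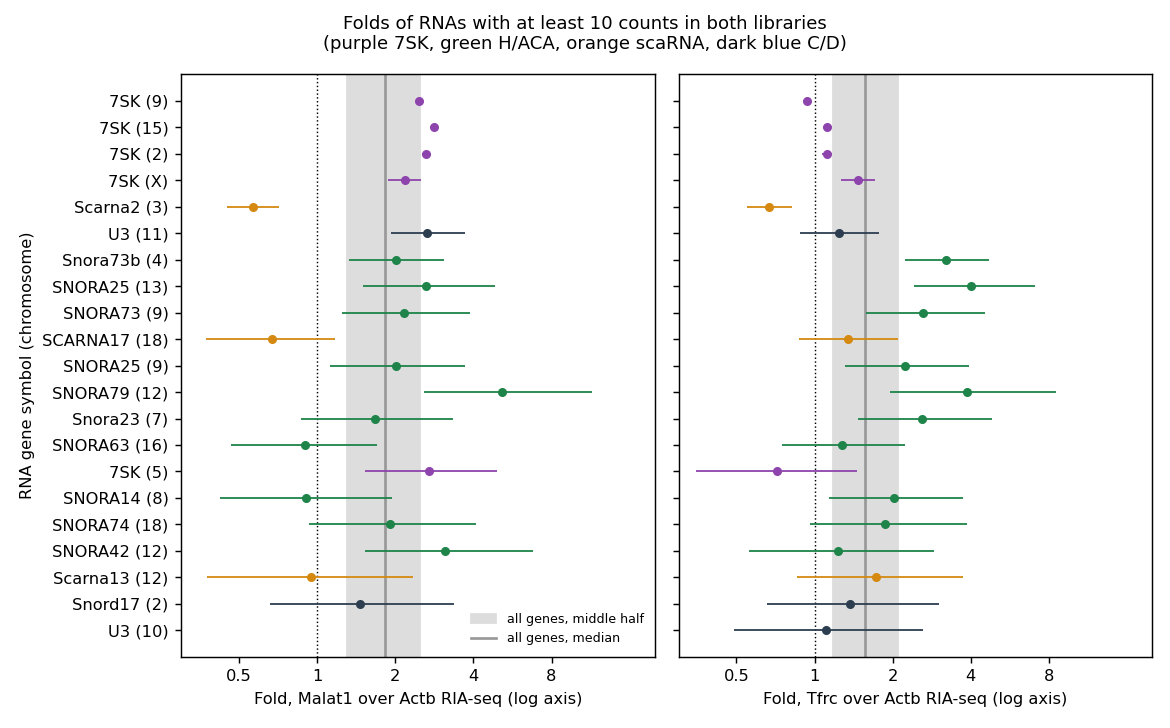
Fold of each member with 10 or more counts in each library compared, Malat1 over the Actb library (left) and Tfrc over the Actb library (right), on a log axis with exact 95% intervals, where the grey band spans the middle quartiles and the grey line the median of all genes. 7SK genes sit above the median gene on the left (2.18 to 2.82) and below it on the right (0.715 to 1.47), and Scarna2 sits below 1 in both.

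7SK was examined first. The gene on chromosome 9 had 15163 counts in the Actb library, 36265 in the Malat1 library and 19795 in the Tfrc library, or 1457, 3598 and 1360 CPM. The Malat1 library was the high library, and the 2 others were close to each other. The fold was 2.47 (2.42 to 2.52) in the Malat1 library, higher than that of 74.2% of all genes, and 0.933 (0.914 to 0.953) in the Tfrc library, higher than that of 9.31%. Between the target libraries it was 2.65 (2.60 to 2.69), which was above 99.0% of all genes. The gene on chromosome 15 had 4144, 11321 and 6493 counts (folds of 2.82 and 1.12), that on chromosome 2 had 3449, 8806 and 5379 (2.64 and 1.12), and that on chromosome X had 270, 569 and 555 (2.18 and 1.47). The 4 genes had the same order of libraries by level except for the lowest place, which was the Tfrc library for chromosome 9 and the Actb library for the others. With median-ratio scaling the fold of all 7SK in the Malat1 library fell to 1.36 and in the Tfrc library to 0.603, so its value in the Tfrc library turned from level to lower, and the 2.55-fold difference between the target libraries (2.51 to 2.58) became 2.25.

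The most counted 7SK genes were those with the longest unbroken stretches identical to the chromosome 9 gene. The annotation holds 331 genes named 7SK, of which 72 were listed with Ensembl-ID counts. The 4 genes with a stretch of 100 or more bases identical to the chromosome 9 gene had 1388 to 71191 counts, and the remaining 327 had 0 to 47. Those 4 genes held 112120 of 112501 Ensembl-ID counts. Matched bases over the whole gene did not order the counts in this way, since the gene second in matched bases (89.4%) had 5 counts and the one at 85.2% had 34, against 21941 at 85.5% and 17600 at 83.7%. Per length, chromosome 9 had 4402 CPM per kb in the Actb library, 10864 in the Malat1 library and 4108 in the Tfrc library, against 1178, 3320 and 1319 for chromosome 15 and 1033, 2716 and 1148 for chromosome 2. The division among genes differed little between libraries, with 65.7%, 63.5% and 61.2% of 7SK counts on chromosome 9, 18.0%, 19.8% and 20.1% on chromosome 15, and 14.9%, 15.4% and 16.6% on chromosome 2. How reads with several matches were handled is not given in the sources used here, so reads from one 7SK gene may have been counted on another and the values of single genes are uncertain. The 15 other chromosomes together had 70, 230 and 194 counts, folds of 3.39 (2.59 to 4.5) and 1.98 (1.5 to 2.64). The gene rows on chromosome 5 had 18, 47 and 18 counts, a fold of 2.70 in the Malat1 library and 0.715 (0.351 to 1.46) in the Tfrc library.

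**Figure D3:**
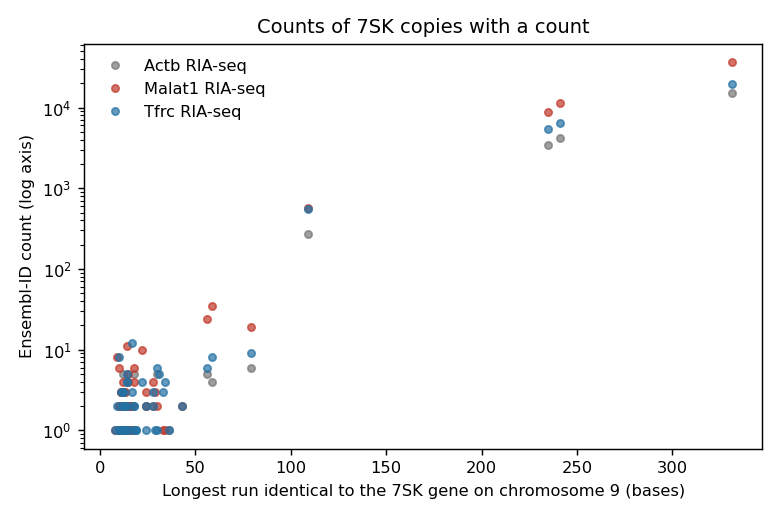
Ensembl-ID counts (log axis) of the 7SK genes with a count against the longest run of bases identical to the 7SK gene on chromosome 9 (bases), with 1 point per gene and library. The genes at 109, 235, 241 and 331 bases have counts from 270 to 36241, and genes with shorter runs have at most 35 in a library.

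H/ACA snoRNAs, the guides of pseudouridylation, had 343, 769 and 1103 counts in all, or 33.0, 76.3 and 75.8 CPM. The fold was 2.31 (2.04 to 2.64) in the Malat1 library and 2.30 (2.03 to 2.60) in the Tfrc library, and the target libraries were level with each other at 1.01 (0.917 to 1.10). With median-ratio scaling the folds were 1.23 and 1.38, still above 1. The median over the 10 tested members was 2.01 in the Malat1 library, against 1.82 for all genes, and 2.41 in the Tfrc library, against 1.56.

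Snora73b, also known as U17b, a snoRNA of ribosomal RNA processing, had 37, 72 and 166 counts. It was highest in the Tfrc library, at 3.21-fold (2.23 to 4.71), and 2.01-fold (1.33 to 3.07) higher in the Malat1 library. Its neighbour in Rcc1, Snora73a, matched it at 198 of 205 bases and had 7, 28 and 17 counts, with the Malat1 library highest. Because reads of these near-identical genes may be split between them, their sum is also given, with 44, 100 and 183 counts and folds of 2.35 (1.63 to 3.43) and 2.97 (2.13 to 4.23). SNORA73 on chromosome 9, in an intron of Rpsa, matched Snora73b at 180 of 205 bases and had 20, 42 and 73 counts (2.17 and 2.61).

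SNORA25 is encoded by genes on chromosomes 13 and 9 of which one pair is identical over all 133 bases. Chromosome 13 had 18, 46 and 101 counts, a fold of 2.64 in the Malat1 library and the largest fold among tested members in the Tfrc library, 4.01 (2.41 to 7.04). Chromosome 9, in an intron of Taf1d, had 19, 37 and 59 counts (2.01 and 2.22). The 3 genes together had 37, 83 and 160 counts, folds of 2.32 (1.55 to 3.51) and 3.09 (2.15 to 4.55). Scaled to totals, both target libraries thus stood above the control. The interval in the Malat1 library included the 1.82 of the median gene, and that in the Tfrc library lay above the 1.56 of the median gene.

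SNORA79 on chromosome 12 had 10, 50 and 54 counts, the largest fold among tested members in the Malat1 library, 5.16 (2.59 to 11.4), and 3.86 (1.95 to 8.50) in the Tfrc library. SNORA42, in an intron of Odc1, had 11, 33 and 19 counts, with folds of 3.10 (1.53 to 6.79) in the Malat1 library and 1.23 (0.558 to 2.87, 1.2349 before rounding) in the Tfrc library. At the low end, SNORA63 had 23, 20 and 41 counts, folds of 0.898 (0.468 to 1.71) and 1.27. Scaled to totals, its level in the Malat1 library was within counting error of the control. It was below the 1.82 of the median gene there, and 0.477 with median-ratio scaling.

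SNORA63, SNORA4 and Snora81 are encoded within Eif4a2, an mRNA that the study followed as a partner in RIA-seq, and the last 2 were picked out after their values were seen. SNORA4 had 9, 31 and 26 counts and Snora81 had 3, 9 and 21. The 4 small RNA identifiers in this gene had 35, 60 and 88 counts together, folds of 1.77 (1.15 to 2.77) and 1.80 (1.20 to 2.74). Eif4a2 itself had 2386, 3788 and 6086 counts, folds of 1.64 (1.56 to 1.73) and 1.82 (1.74 to 1.91), and the intervals of the small RNAs spanned those of their host. These small RNAs overlapped annotated exons in whole or in part, and reads from the host transcript over them cannot be told apart from reads of the snoRNA.

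**Figure D4:**
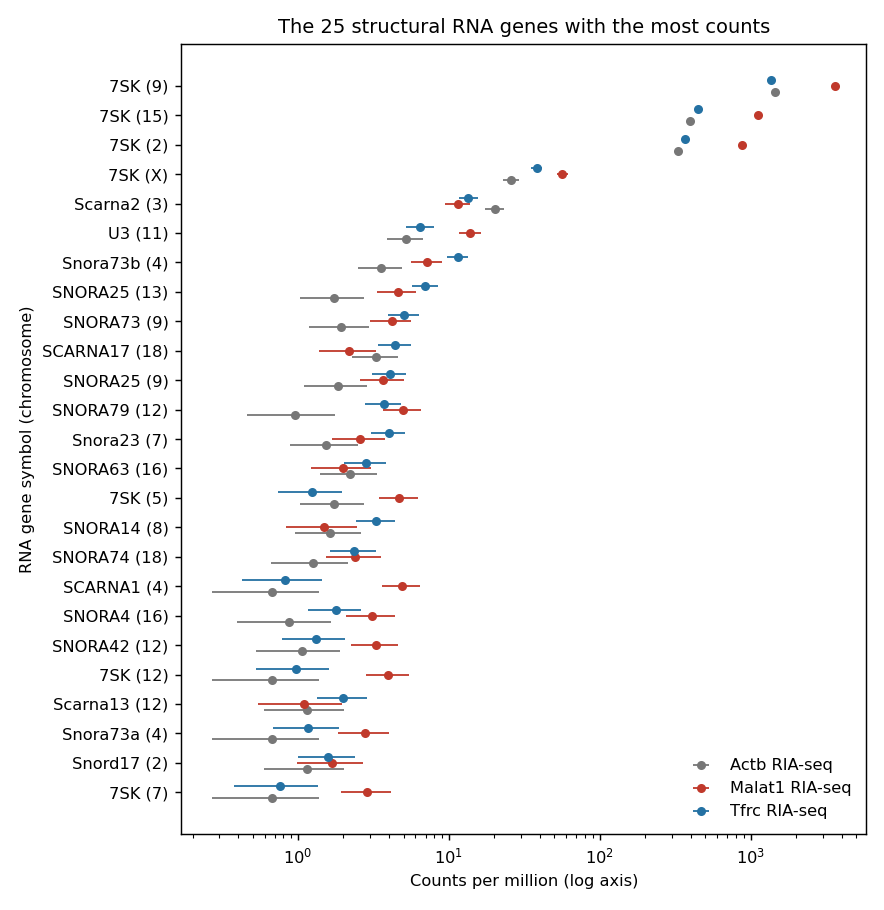
CPM (log axis) of the 25 members with the most counts in each library, with exact 95% binomial intervals for counting error and the chromosome in parentheses. 7SK on chromosome 9 ranges from 1360 to 3598, and all members below 7SK on chromosome X lie under 25 CPM.

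The scaRNAs guide modification of spliceosomal RNAs. Their sum of 290, 257 and 362 counts was nearly level, with folds of 0.915 (0.770 to 1.09) and 0.892 (0.763 to 1.05), and both fell to 0.486 and 0.536 with median-ratio scaling. Scarna2, on chromosome 3 and outside any longer gene on its strand, was the most counted of them with 209, 115 and 196 counts, or 20.1, 11.4 and 13.5 CPM. It was lower in both target libraries, at 0.568 (0.448 to 0.717) and 0.670 (0.549 to 0.819), folds that only 1.48% and 1.89% of all genes fell below, and 0.302 and 0.403 with median-ratio scaling. Without Scarna2 the other 19 scaRNAs had 81, 142 and 166 counts, folds of 1.81 (1.37 to 2.41) and 1.47 (1.12 to 1.94), so this one RNA set the direction of the sum. SCARNA17 had 34, 22 and 64 counts (0.668, 0.372 to 1.18, and 1.35), also outside any longer gene.

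The scaRNAs inside introns had higher folds in the Malat1 library than those outside any longer gene, a split that was made after the values were seen and whose difference was not tested. The 14 intronic scaRNAs had a fold of 3.46 (2.30 to 5.35) in the Malat1 library and 1.48 (0.947 to 2.35) in the Tfrc library, whereas the 5 outside any longer gene had 0.607 (0.493 to 0.746) and 0.810 (0.682 to 0.963), or 0.786 and 1.45 without Scarna2. SCARNA1, with 7, 49 and 12 counts, was the most counted of these in the Malat1 library at 7.23 (3.26 to 18.9), and without it the intronic fold was 2.37 (1.44 to 4.0). For H/ACA genes the folds were 2.28 and 2.27 for 90 intronic identifiers and 3.10 and 3.89 for the 39 outside any longer gene.

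The RNA components of RNase MRP and RNase P, ribozyme RNAs that the symbols Rmrp and Rpph1 stand for, appear in the files under the Rfam names RNase_MRP and RNaseP_nuc and so were not chosen by the rule. They are named here after their values were seen. RNase_MRP had 509, 176 and 322 counts, folds of 0.357 (0.299 to 0.425) and 0.452 (0.392 to 0.521). RNaseP_nuc had 99, 31 and 70 counts, folds of 0.323 (0.209 to 0.488) and 0.506 (0.367 to 0.693). Like Scarna2, both were lower in both target libraries than in the Actb library.

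C/D snoRNAs were the sparsest class, with 91, 197 and 157 counts, or 8.75, 19.5 and 10.8 CPM. The fold was 2.24 (1.73 to 2.90) in the Malat1 library and 1.23 (0.947 to 1.62) in the Tfrc library, which became 1.19 and 0.741 with median-ratio scaling, so that the direction in the Tfrc library turned. U3, the abundant C/D snoRNA of ribosomal RNA precursor cleavage, supplied most of it. On chromosome 11 it had 54, 139 and 94 counts, a fold of 2.66 (1.93 to 3.71) in the Malat1 library and 1.24 in the Tfrc library. The 4 genes of U3 within Tex14 on that chromosome were identical over all 214 bases, so their counts are given as a sum, 54, 137 and 86, and reads of one cannot be told from those of another. Without U3 on chromosome 11 the class folds were 1.62 (1.05 to 2.51), under the 1.82 of the median gene, and 1.22, and Malat1 over Tfrc went from 1.81 (1.46 to 2.25) to 1.33 (0.914 to 1.93), so the difference between the target libraries was then within counting error. U3 on chromosome 10 had 11, 6 and 17 counts.

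Snord symbols had 26, 52 and 46 counts in all, folds of 2.06 (1.27 to 3.44) and 1.26 (0.766 to 2.13). Of the 20, 18 had fewer than 10 counts in every library. Snord17, in an intron of Snx5, had 12, 17 and 23 counts (1.46 and 1.37). Snord89 had 1, 12 and 3 counts, a ratio of 12.4 in the Malat1 library whose interval ran from 1.83 to 530 because the control held 1 count, and Snord83b had 3, 7 and 3. The other 17 Snord genes had between 1 and 5 counts over all libraries, a depth at which no difference of a single gene was detectable.

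Among snoRNA genes the share listed rose with length, whereas listed and unlisted 7SK genes had median lengths of 288.5 and 290 nt. The shortest gene of any type among the rows analysed here was 89 nt, and 0 of 1435 shorter annotated genes had a row, among them 350 of the snoRNA type. The share of snoRNA genes listed was 6.60% at 89 to 99 nt, 9.48% at 100 to 124 nt, 18.8% at 125 to 149 nt, 39.3% at 150 to 199 nt and 45.8% at 200 to 250 nt. Of the annotated Snord genes, 285 of 347 were under 89 nt, whereas 28 of 1031 Snora genes were. Longer genes of other types also had no row, with 0 of 1423 annotated genes of the snRNA type and 0 of 332 of the rRNA type listed, although the median length was 184 nt for U2 genes and 107 nt for U6 genes. Whether a filter on length or type, rather than recovery, left genes without a row was not tested.

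Most snoRNA genes lay within longer genes, since 39 of 155 H/ACA and 6 of 23 C/D identifiers lay in none. The members had 270 Ensembl identifiers in all, among them 72 of 7SK and 20 of scaRNAs. Of the 270, 142 lay in an intron of a longer gene on the same strand, 25 in an exon, 6 in both and 96 in no such gene, and 1 was not found in the annotation. The density of counts on the 90 intronic H/ACA identifiers was 2.00 CPM per kb in the Actb library, 4.57 in the Malat1 library and 4.54 in the Tfrc library. Genome counts of their 78 host genes, spread over the intron length of those genes, gave 0.165, 0.568 and 0.473, a ratio of sums of 12.2, 8.04 and 9.60. A count was present for 49, 68 and 72 of the 90 identifiers, and 38, 43 and 43 of the 90 lay above the density of their own host, so the ratio rests on part of them. The 90 are also genes with a count in at least 1 library, while 879 of 1031 annotated Snora genes were not listed, and the density over listed genes is raised by that selection. Ensembl-ID counts of the hosts per kb of exon were 38.1, 50.4 and 39.6. Whether the Genome counts are intronic reads is not stated in the sources used here, and the comparison takes them as such.

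Genome counts and Ensembl-ID counts of the hosts had different folds. For the hosts of intronic H/ACA snoRNAs, Genome counts were 3.45-fold higher in the Malat1 library and 2.88-fold higher in the Tfrc library, and Ensembl-ID counts 1.32-fold and 1.04-fold, against 2.28 and 2.27 for the snoRNAs. The part of host RNA in the snoRNA folds was not tested. For named hosts, the folds of all counts are followed by those of Genome counts. Rcc1 had 2.40 and 1.27, with Genome folds of 5.01 and 3.73, beside 2.35 and 2.97 for its 2 snoRNAs. Gtf2a1 had 2.72 and 1.73, with Genome folds of 4.51 and 4.37, beside 5.16 and 3.86 for SNORA79. Zfp808 had 2.52 and 2.39, with Genome folds of 8.95 and 3.34 from 6, 52 and 28 counts, beside 2.64 and 4.01 for the rows of SNORA25 on chromosome 13, of which 1 of 2 genes lies in it. Odc1 had 1.03 and 1.23, with Genome folds of 2.97 and 2.98, beside 3.10 and 1.23 for SNORA42. Ppp1r8 had 1.24 and 1.16, with Genome folds of 2.98 and 2.49, beside 7.23 and 1.23 for SCARNA1. In the Malat1 library the fold of SNORA42 was close to that of its host's Genome counts and that of SCARNA1 was higher. In the Tfrc library both were lower. The intervals overlapped each time. Those of SCARNA1, with 7 counts in the Actb library, were 3.26 to 18.9 and 0.445 to 3.67. Those of Ppp1r8 Genome counts were 2.09 to 4.32 and 1.77 to 3.59. In the Tfrc library SNORA42 had 0.558 to 2.87, against 2.30 to 3.91 for Odc1 Genome counts.

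**Figure D5:**
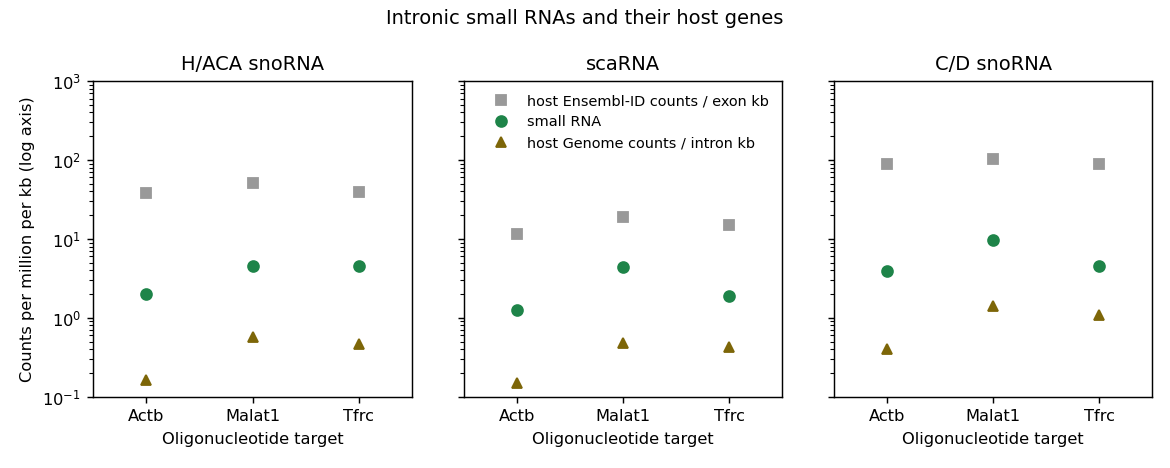
CPM per kb (log axis) of intronic small RNAs (circles), of their hosts' Ensembl-ID counts over exon length (squares) and of their hosts' Genome counts over intron length (triangles), by oligonucleotide target, 1 library each. For H/ACA snoRNAs the circles lie at 2.00, 4.57 and 4.54, between squares at 38.1 to 50.4 and triangles at 0.165 to 0.568.

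The mRNAs of proteins of small RNA particles were compared as a list of 85 genes, of which 84 were found. In the Malat1 library 12 of 84 were at least 2-fold higher, against 42.1% of all genes, and in the Tfrc library 2 of 84, against 28.6%, and 0 were at least 2-fold lower in either. Proteins of snoRNA, scaRNA and 7SK particles made up 27 of these, with 7 and 2 at least 2-fold higher and median folds of 1.58 and 1.43. The other 57, Sm and LSm proteins, proteins of single spliceosomal particles, factors of their export and assembly, and proteins of the signal recognition particle and of RNase P and MRP, belong to particles whose RNA is not among the members, with 5 and 0 higher and medians of 1.37 and 1.14. Of the 4 core proteins of H/ACA particles, among them the pseudouridine synthase Dkc1 (1.64 and 1.28), 0 passed 2-fold in either library. Of the 4 C/D core proteins 1 did, Nop58 at 2.56 in the Malat1 library and 1.88 in the Tfrc library. Of the 13 assembly factors 5 passed in the Malat1 library and 2 in the Tfrc library, Wrap53, which carries scaRNAs to Cajal bodies, at 4.52 and 2.45, and Shq1, an H/ACA assembly factor, at 3.46 and 2.63. Of the 6 proteins of the 7SK particle 1 passed, Ccnt2, a cyclin of P-TEFb, at 3.74 and 1.96, while Larp7, which binds the 3' end of 7SK, was 0.703 (0.556 to 0.887) and 1.15. Beside the 7SK folds of 2.56 and 1.00, Ccnt2 was above and the 5 others below in the Malat1 library. In the Tfrc library all 6 were above. Of all genes, 76.5% lay below the 7SK fold in the Malat1 library and 13.1% in the Tfrc library. These mRNAs thus mostly lay on the side of 7SK where most genes lay.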

How the data were processed

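RNA was measured by RIA-seq in E14 mouse ES cells, with 1 library each for Actb, Malat1 and Tfrc oligonucleotides, and groups were taken from the labels of the samples. The authors deposited raw read counts per gene, whole numbers without normalization, with rows under the Ensembl identifier and under the name Genome. The submitters' processing notes name Bowtie 0.12.7 and the builds mm9 and NCBIM37 without their roles. How reads were counted, how several matches were treated and whether strand was used are not given in the sources used here. Genes, positions and sequences came from the NCBIM37 genome and its GENCODE annotation. A host was a gene of more than 1000 nt on the same strand that had a row. Where several genes qualified, protein-coding genes were taken first and then the shortest, so a noncoding gene around the same small RNA could be passed over.

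The members and lists were chosen with earlier results of these data known. Counts were summed per symbol and chromosome, divided by library totals (10405209, 10078439 and 14553941), and compared as ratios with a pseudocount of 0. Shares have exact Clopper-Pearson and ratios exact conditional binomial intervals at the 95% level. No test between conditions was made. A gene was counted as higher at a fold of 2 or more, or lower at 0.5 or less, and at least 10 counts in each library. Genes named were the 5 most counted per class, the 3 largest and 3 smallest folds of each comparison, the 7SK and U3 rows, and their hosts. Others named were picked after their values were seen. The fold computation was tested on simulated counts. Alternatives were median-ratio scaling, totals without the 10 largest genes, Ensembl-ID rows only, the other target library as control, the class without its largest member, members of a small RNA gene type only, a pseudocount of 1, a minimum of 50 counts and sums over chromosomes. Scripts used pandas 2.3.3 and Biopython 1.88 with scipy 1.17.1 and numpy 2.4.6 under Python 3.11.15, and plots were drawn with matplotlib 3.10.9.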

Additional observations from a re-analysis of the deposited data

How the results depend on the processing

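With 1 library a condition, no replicate could be left out. No paired analysis was possible because each condition had 1 library. Folds are given in the order all members, C/D, H/ACA, and scaRNA with 7SK. For Malat1 over the Actb library they were 2.53, 2.24, 2.31 and 2.54, and became 1.35, 1.19, 1.23 and 1.35 with median-ratio scaling and 1.58, 1.40, 1.45 and 1.59 with totals without the 10 largest genes. With Ensembl-ID rows only they were 2.96 for all members, 2.72 for H/ACA and 2.97 for scaRNA with 7SK. Without the largest member they were 2.64 for all, 1.62 for C/D and 2.66 for scaRNA with 7SK. With the Tfrc library as control the values were 2.48 for all and 1.01 for H/ACA. For Tfrc over the Actb library the folds of 1.02, 1.23, 2.30 and 1.00 became 0.614, 0.741, 1.38 and 0.602 with median-ratio scaling and 0.728, 0.878, 1.64 and 0.714 without the 10 largest genes. With Ensembl-ID rows only they were 1.14 for all and 1.12 for scaRNA with 7SK, and without the largest member 1.18 and 1.13. With the Malat1 library as control, which is a different comparison, the values were 0.404, 0.552, 0.993 and 0.395. The H/ACA value was level within its interval, from 0.905 to 1.09.

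Members at least 2-fold higher in the Malat1 library, 12 of 20, were 1 with median-ratio scaling, 5 of 6 at a minimum of 50 counts and 100 of 170 with a pseudocount of 1 and any count, and those lower, 0, were 4 with median-ratio scaling and 5 with the pseudocount. In the Tfrc library the 7 of 21 higher were 2, 0 of 6 and 57 of 180 under the same settings, and the 0 lower were 2 and 22 with median-ratio scaling and the pseudocount. The fewer genes at 50 counts follow from the minimum; for the others the cause was not tested. The remaining 26 alternative values moved by less than their counting intervals, or for counts by less than 1.5 times.

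The depth limits single genes, since 129 of 203 members had fewer than 10 counts in all. Near-identical genes share reads in a way not stated in the sources used here.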

Other observations

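Other structural RNAs that the symbol rule did not take in are listed under Rfam names. The telomerase RNA, the template of telomere synthesis, had 85 counts in the Actb library, 47 in the Malat1 library and 142 in the Tfrc library. It was lower in the Malat1 library at 0.571 (95% interval 0.391 to 0.825) and 1.19 (0.907 to 1.58) in the Tfrc library. Y RNAs, small RNAs bound by the Ro protein, had 5, 10 and 27 counts over 8 chromosomes, with folds of 2.06 (0.643 to 7.70) and 3.86 (1.47 to 12.8).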
